A study of Mus musculus with 6 samples.

Results

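The genes described here encode the initiation and elongation factors of cytosolic protein synthesis and the enzymes and inhibitors that share their names. They were chosen by symbol: every gene whose symbol begins with Eif and a digit from 1 to 6, or with Eef and 1 or 2, after the gene identifiers of the files had been matched to symbols. Of 69 matching genes, 5 kinases (4 Eif2ak genes and Eef2k) were left out, and no pseudogene matched, which left 64 of the 55416 genes in the files. The tested samples, called cKO here, carried Pdgfra-Cre, 2 floxed copies of Ift88 (fl/fl) and the RosaEYFP reporter. The control samples carried the same Cre and reporter with 1 floxed and 1 wild-type copy of Ift88 (fl/wt), so both groups carried Cre and at least 1 floxed allele. Each group had 3 samples of cells labelled as oligodendrocyte precursors, taken from mouse cortex at postnatal day 11, and each sample was a pool from 4 to 6 mice. Cre was driven by the promoter of Pdgfra, a growth factor receptor gene of these precursors. The product of Ift88 belongs to the transport machinery that assembles primary cilia. Spread between replicates is therefore spread between pools.

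Translation begins when eIF2 brings the initiator tRNA to the small ribosomal subunit, where eIF1, eIF1A, eIF3 and eIF5 hold it until a start codon is found. The eIF4 proteins bind the cap of the mRNA, unwind its leader and connect it to eIF3, and the 4E-BPs block that step by holding eIF4E. eEF1A then delivers each further aminoacyl-tRNA and eEF2 moves the ribosome along by a codon. Many of these mRNAs begin with a pyrimidine tract through which the kinase complex mTORC1 governs their own translation. Partial loss of eIF2B, the exchange factor of eIF2, causes a human disease of white matter in which glial cells are affected.

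Start-site sequences are shown for 4 members because the series title names CREB and because the X and Y copies of the eIF2 gamma subunit are compared further on. Eef2 holds the full CREB site, and Eif3f is printed beside the 2 gamma copies as another gene with AAGATGGC at its start. RefSeq promoters (GRCm38.p6, a different build from that of the counts) were matched by symbol for 48 of the 64 members. Each window runs from 60 bases before to 30 bases after the first base of the RefSeq gene. Capitals mark TATAAA, TGACGTCA (the full cAMP response element bound by CREB) or AAGATGGC (the core bound by the factor YY1), each searched on both strands. The windows are chr10:81176571-81176660 on the plus strand for Eef2, chrX:94212622-94212711 on the minus strand for Eif2s3x, chrY:1010535-1010624 on the plus strand for Eif2s3y and chr7:108934355-108934444 on the plus strand for Eif3f.
Eef2: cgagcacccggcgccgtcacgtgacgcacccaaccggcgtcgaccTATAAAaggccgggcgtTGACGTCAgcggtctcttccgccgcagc
Eif2s3x: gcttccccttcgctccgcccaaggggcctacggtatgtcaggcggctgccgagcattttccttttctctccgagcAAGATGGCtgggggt
Eif2s3y: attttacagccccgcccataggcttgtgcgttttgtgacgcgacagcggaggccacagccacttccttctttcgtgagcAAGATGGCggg
Eif3f: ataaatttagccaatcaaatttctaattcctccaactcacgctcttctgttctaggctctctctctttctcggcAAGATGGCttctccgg
Eef2 was the only matched member with TGACGTCA in the full promoter of 250 bases before to 50 after the start, or 2.08% of members against 2.03% of the 27025 genes in the table. The shorter site TGACG, which TGACGTCA contains, was found in 23 of 48 members (47.9%) and in 23.0% of all genes. AAGATGGC was found in 6 of 48 members (12.5%) and in 3.19% of all genes, and the E-box CACGTG in 12 members (25%) and 8.09% of all genes. TATAAA was found in 5 members (10.4%) and in 15.7% of all genes. The median GC content was 62.2% in the promoters of the members and 52.8% in those of all genes. These are matches of letters and show no binding.

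The values are raw counts of reads near the 3' end of polyadenylated RNA, 1 tag per transcript, given below as CPM (counts scaled to the total of the library), which do not depend on transcript length. Totals were 11773548 to 13909236 counts in 5 libraries and 568509 in cKO replicate 2. A count of 0 allowed up to 5.28 CPM in cKO replicate 2 and up to 0.216 to 0.255 CPM in the others (3 counts, for counting error only, since PCR copies are not independent molecules). Ift88 had 1, 0 and 305 counts in the cKO libraries and 143, 32 and 167 in the control libraries. Its 3' tags can lie outside the floxed exons, so they do not check the genotype labels. Of 12 precursor markers, 4 (Sox10, Tnr, Pcdh15 and Gpr17) had no count in any library, and the list summed to 7.04 to 225 CPM in cKO and 232 to 480 CPM in control libraries. The markers did not share a direction. C1ql1 had 282, 1 and 343 counts in cKO and 1256, 3784 and 1825 counts in control libraries. Pdgfra (155 and 121 counts against 0, 59 and 56) and Vcan (433 and 468 against 341, 194 and 363) were higher in cKO replicates 1 and 3. Ptprz1 overlapped between the groups, and Olig1 and Olig2 had counts in cKO replicate 3 alone. The sum of 10 neuron markers was 1636 to 6036 CPM in cKO and 1721 to 6051 CPM in control libraries, above the precursor sum in all 6. Choroid plexus markers (5 genes, Kl at 0) summed to 376, 45945 and 594 CPM in cKO and 25.1, 7.45 and 0.221 CPM in control libraries. In cKO replicates 1 and 2 this sum was Ttr alone (5224 and 26120 counts), with Folr1, Clic6 and Kcnj13 at 0. In cKO replicate 3 Ttr had 6756 counts and those 3 genes had 115, 76 and 50. In such bulk RNA fewer cells of a type and less RNA per cell cannot be told apart.

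The translation factors together held 1.84%, 2.26% and 2.21% of all counts in the cKO libraries and 2.17%, 1.84% and 2.03% in the control libraries. Their summed level was 21065 ± 2306 CPM in cKO and 20123 ± 1637 CPM in control samples (SD, n = 3 each), and 20274 CPM in cKO replicates 1 and 3 alone. The total therefore differed between the groups by less than the spread within each. A few genes made up much of it: the 3 most abundant members of a library held 50.3%, 46.4% and 51.5% of the members' counts in the cKO libraries and 46.2%, 41.3% and 42.1% in the control libraries. Of the 64 genes, 49 reached 20 counts in each of the 5 deeper libraries. No count was found in those libraries for Eif4e1b, a cap-binding paralog known from oocytes, or for Eif2c5, which the annotation lists as a long noncoding RNA.

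cKO replicate 2 gave a different picture of the same genes. There 17 members had at least 100 counts, 13 had 1 to 15, 34 had none, and no member lay between. Among the 30 members averaging at least 100 CPM in the controls, 17 (56.7%) had under 20 counts in this library, against 63.0% of all 2074 genes at that level. Eif4a2, an RNA helicase of the cap complex, had 1039, 1.76 and 912 CPM in the cKO libraries and 1249, 798 and 735 CPM in the control libraries. The 1.76 CPM is 1 count. The order of the 62 members with a count was close between any pair of deeper libraries (Spearman's rho across genes 0.910 to 0.964) and less so between cKO replicate 2 and each of them (0.690 to 0.737). Those correlations are across genes of shared libraries, which are not independent replicates. This library also held the high choroid plexus sum given above, all of it Ttr, and its part in these values was not tested. Fold changes, shares and group sums are therefore given with and without this library. Groups whose sums are not described below had these ratios of cKO to control means, with all libraries and without cKO replicate 2. They were 1.13 and 0.809 for the start-codon factors, and 0.646 and 0.949 for the 4E-BPs with Eif4enif1. They were 0.450 and 0.675 for eIF5B and eIF6, 1.05 and 0.874 for eIF5A, and 0.684 and 1.03 for the methyltransferases.

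**Figure D1:**
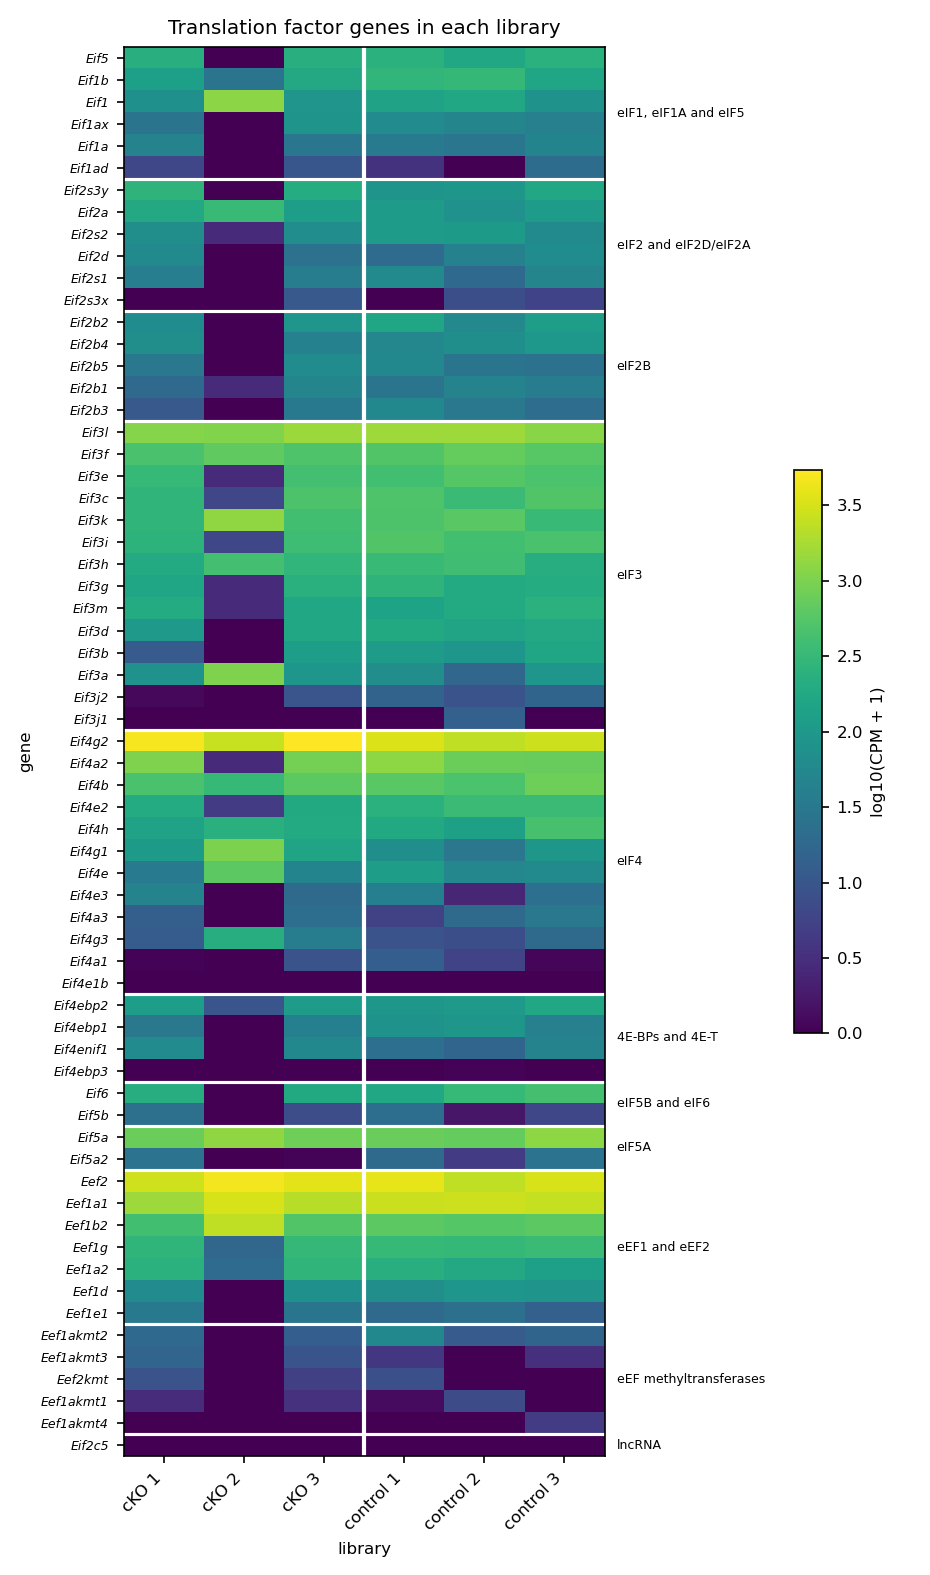
Level of each of the 64 translation factor genes (rows, by complex) in the 3 cKO and 3 control libraries (columns), as log10(CPM + 1). The 5 deeper libraries show one common order of levels, and cKO replicate 2 shows 34 genes without a count beside a few at high level.

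The question put to the 2 groups is whether the mRNA of the translation machinery differs when both copies of Ift88 are floxed. None of the 59 members that passed the filter on low counts met an adjusted p under 0.05 in either direction with all 6 libraries (quasi-likelihood test of edgeR, Benjamini-Hochberg over 12833 genes). Over all genes 2 were called, or 0.0156%, 1 in each direction (0.00779% each). At an unadjusted p under 0.05 there were 0 members, against 2.83% of all genes. DESeq2 also called 0 members, against 0.706% of 18410 genes, while limma-voom called 2, against 0.0623% of 12833 genes: Eif4g2 higher and Eef1a1 lower in cKO. The median log2 fold change of the 59 members was -0.51, with 19 above 0 and 40 below, and that of all genes tested was -0.44. A median below 0 was thus shared with the whole table.

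Without cKO replicate 2, 59 members were again tested and again 0 were called by edgeR, against 0.00687% of 14562 genes (1 gene, lower in cKO). At an unadjusted p under 0.05 there were 3 members, Eif4g2 and Eif2s3y with higher and Eif4e2 with lower values in cKO, beside 6.09% of all genes. DESeq2 called 2 of 62 members with these 5 libraries, Eif4g2 and Eif3j1, close to its share of 3.04% of 20272 genes. limma-voom called 0 members and 0 genes, with 6 members and 8.94% of all genes at an unadjusted p under 0.05. The median log2 fold change was -0.14 over the members and -0.06 over all genes, with 23 members above 0 and 36 below. The sign differed between the 2 fits for 14 of 59 members: 5 were positive with all 6 libraries and negative without cKO replicate 2, and 9 the other way round. The 5 members outside both tests were Eif2c5, Eif4e1b, Eif4ebp3 with 1 count in control replicate 2, Eef1akmt4 with 46 counts in control replicate 3 and Eif3j1 with 164 counts in control replicate 2. The DESeq2 call of Eif3j1 rests on that 1 library.

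The groups were also compared by overlap. With all 6 libraries every cKO value was above every control value for 2 of 59 members (3.39%), Eif2a and Eif4g1, against 1.33% of all genes. Every cKO value was below for 3 members (5.08%), Eif3i, Eif4e2 and Eif4ebp1, against 11.1% of all genes. Without cKO replicate 2 the counts were 8 members above (13.6%, all genes 13.0%) and 7 below (11.9%, all genes 12.6%), close to the share over all genes. Leaving out a library cannot make separate groups overlap. Eif2a, Eif4g1, Eif3i, Eif4e2 and Eif4ebp1, apart with all 6 libraries, are therefore necessarily among the members apart without cKO replicate 2.

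**Figure D2:**
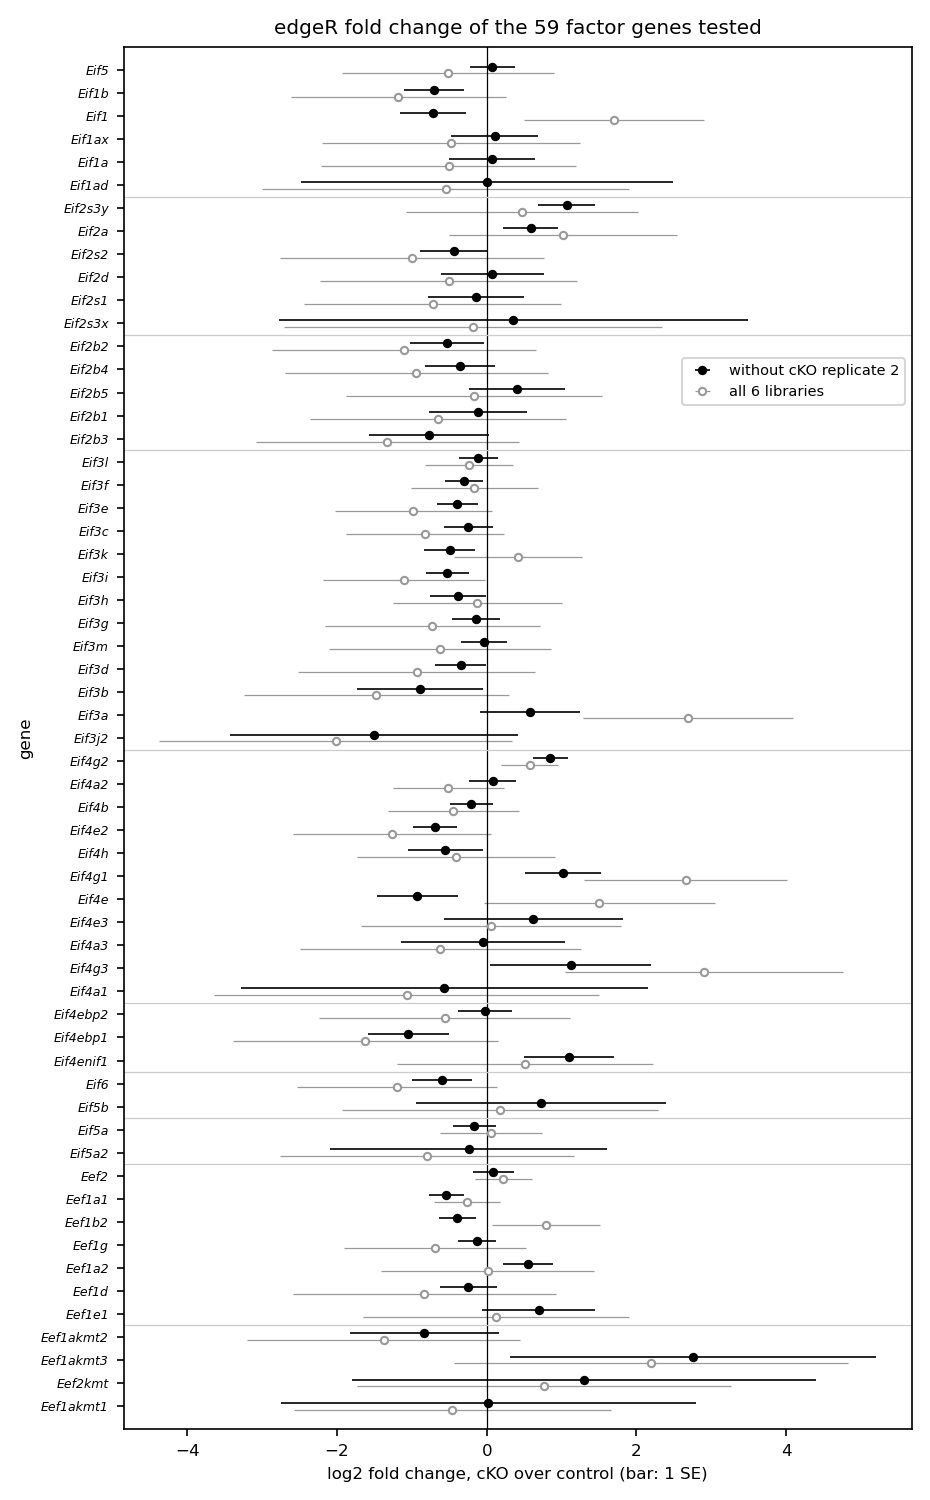
Log2 fold change of cKO over control (horizontal axis, bar 1 standard error) from edgeR for the 59 members tested, without cKO replicate 2 (filled) and with all 6 libraries (open). No member passed the adjusted threshold, and 14 lie on opposite sides of 0 in the 2 fits, 5 of them (Eef1b2, Eif1, Eif3k, Eif4e and Eif5a) positive with all 6 libraries only.

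Among the start-codon factors, Eif1 and Eif1b encode near-identical forms of eIF1, which keeps the scanning ribosome open. Eif1 had 74.1, 1198 and 86.3 CPM in the cKO libraries and 143, 171 and 80.3 CPM in the control libraries. One cKO library was therefore high and the other two lay at the low end of the controls. Its log2 fold change was 1.70 (SE 1.20, edgeR adjusted p = 1) with all libraries and -0.72 (SE 0.44, edgeR adjusted p = 0.869) without cKO replicate 2. Eif1b had 129, 26.4 and 176 CPM in cKO and 283, 306 and 154 CPM in control libraries. Its share of the counts of the pair was 63.5% and 67.2% in cKO replicates 1 and 3, and 66.5%, 64.1% and 65.8% in the controls, but 2.16% in cKO replicate 2 (15 of 696 counts, 95% Clopper-Pearson interval 1.21% to 3.53%). That interval, like those below, covers counting error only, since PCR copies are not independent molecules. The share as counted ran from 63.5% to 67.2% in the 5 deeper libraries. The level of Eif1 is uncertain, since 5 near-identical pseudogene copies held 7695 counts in the deeper libraries against 7269 on Eif1 itself. With the copies added Eif1 had 108, 1353 and 193 CPM in cKO and 281, 385 and 179 CPM in control libraries. Its log2 fold change was then 0.87 (SE 1.01, edgeR adjusted p = 1) with all libraries and -0.92 (SE 0.44, edgeR adjusted p = 0.766) without cKO replicate 2. Eif1ax, the X-linked gene of eIF1A, had 26.5, 0 and 84.3 CPM in cKO and 62.2, 48.8 and 41.9 CPM in control libraries. Its autosomal copy Eif1a had 46.4, 0 and 28.6 CPM in cKO and 34.5, 28.5 and 46.9 CPM in control libraries. Both overlapped between the groups. Eif5, which encodes the GTPase activator of eIF2, was the most abundant of the 6 genes over the deeper libraries (34.5% of their counts), and Eif1ad the lowest, with 0 to 19.7 CPM.

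eIF2, which carries the initiator tRNA, has a gamma subunit encoded on both sex chromosomes in mice. Eif2s3y, the Y copy, had 272, 0 and 204 CPM in the cKO libraries and 85.5, 95.1 and 169 CPM in the control libraries. The 2 deep cKO libraries were above all 3 controls. edgeR gave a log2 fold change of 1.07 (SE 0.38, edgeR unadjusted p = 0.0238, adjusted p = 0.767) without cKO replicate 2 and 0.47 (SE 1.55, edgeR adjusted p = 1) with it. Eif2s3x, the X copy, had 0, 0 and 117 counts in cKO and 0, 88 and 63 counts in control libraries. Eif2s3y thus held 100% and 95.4% of the counts of the pair in cKO replicates 1 and 3 and 100%, 93.2% and 97.3% in controls, with no count of either gene in cKO replicate 2. Sex is not among the labels used here, and the share of males in each pool was not tested. The level of Eif2s3x, and with it the share, is uncertain: Gm2223, a processed pseudogene identical to it over the aligned part of its 3' end, held 1210 counts in the deeper libraries against 268 on Eif2s3x itself. The pseudogene Eif2s3x-ps1 had 455, 0 and 531 counts in cKO and 567, 512 and 288 counts in control libraries. It was not among the near-identical copies found, and the origin of its reads was not tested. The 6 genes of this group summed to 620, 329 and 460 CPM in cKO and 386, 345 and 461 CPM in control libraries. These ranges overlapped. The ratio of cKO to control means was 1.18 with all libraries and 1.36 without cKO replicate 2. Among the other members of the group, Eif2a, an initiation factor that acts apart from eIF2, had 179, 327 and 117 CPM in cKO and 109, 76.2 and 116 CPM in control libraries. Its lowest cKO value was just above its highest control value. Eif2s2, the beta subunit, had 68.9, 1.76 and 66.8 CPM in cKO and 111, 106 and 58.3 CPM in control libraries.

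eIF2B reloads eIF2 with GTP and is the target of the integrated stress response. Its 5 subunit genes summed to 192, 1.76 and 273 CPM in the cKO libraries and 342, 229 and 298 CPM in the control libraries. Only 1 count in all, on Eif2b1, came from cKO replicate 2. Without that library the mean was 233 CPM in cKO and 289.6 CPM in control samples, a ratio of 0.804, and the ranges overlapped. Eif2b2, the beta subunit and the largest contributor with 36.0% of the counts, had 64.3, 0 and 87.2 CPM in cKO and 154, 56.0 and 119 CPM in control libraries. Eif2b3, the gamma subunit, had 10.1, 0 and 31.9 CPM in cKO and 55.3, 29.9 and 20.7 CPM in control libraries.

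eIF3 is the large scaffold that binds the small ribosomal subunit and joins it to eIF4G. Its 14 genes summed to 3488, 4484 and 4752 CPM in the cKO libraries and 5138, 5183 and 4656 CPM in the control libraries, or 4241 ± 666 CPM in cKO and 4992 ± 292 CPM in control samples (SD, n = 3 each). The cKO mean was 4120 CPM without cKO replicate 2, a ratio to control of 0.825. cKO replicate 3 lay within the controls. Eif3l led the complex with 1148, 1052 and 1468 CPM in cKO and 1548, 1524 and 1173 CPM in control libraries, and Eif3f, also found in all 6 libraries at high level, had 455, 675 and 511 CPM in cKO and 525, 700 and 575 CPM in control libraries. For both genes the groups overlapped. Eif3i, a WD-repeat subunit, had 263, 5.28 and 379 CPM in the cKO libraries and 530, 404 and 456 CPM in the control libraries, with no overlap. Its log2 fold change was -1.11 (SE 1.09, edgeR adjusted p = 1) with all libraries and -0.53 without cKO replicate 2. Eif3e had 320, 1.76 and 410 CPM in cKO and 401, 562 and 481 CPM in control libraries, a log2 fold change of -0.98 (SE 1.05, edgeR adjusted p = 1), and -0.39 (SE 0.27, edgeR adjusted p = 0.925) without cKO replicate 2. Eif3a, the largest core subunit, had 81.4, 1015 and 92.2 CPM in the cKO libraries and 69.8, 16 and 91.9 CPM in the control libraries. The log2 fold change of 2.69 (SE 1.40, edgeR unadjusted p = 0.0547, adjusted p = 1) was 0.58 without cKO replicate 2, the 1 library with a high value. Within the complex, Eif3a, Eif3f, Eif3h, Eif3k and Eif3l had at least 100 counts in cKO replicate 2, while the other 9 genes had at most 3.

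The genes of eIF3j are duplicated in mice. Eif3j2 had 0.216, 0 and 8.75 CPM in the cKO libraries and 14.5, 8.07 and 15.1 CPM in the control libraries. The log2 fold change of Eif3j2 was -2.02 (SE 2.36, edgeR adjusted p = 1), and -1.51 (SE 1.93, edgeR adjusted p = 1) without cKO replicate 2. Eif3j1 had counts in control replicate 2 alone. The 3' ends of the 2 genes are 99.7% identical over 300 bases, so reads that fit both would be left out by the counting and the levels of both are uncertain.

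The cap-binding group held the most abundant member. Its 12 genes summed to 6871, 5041 and 7630 CPM in the cKO libraries and 5935, 4259 and 5348 CPM in the control libraries. The ratio of cKO to control means was 1.26 with all libraries and 1.40 without cKO replicate 2. Eif4g2 made up 62.7% of the sum over the deeper libraries. Eif4g2 (ENSMUSG00000005610, GRCm39 chromosome 7, 110666957 to 110682237, minus strand) encodes DAP5, a relative of the scaffold eIF4G that lacks the eIF4E-binding part and serves cap-independent initiation. It had 4824, 2646 and 5436 CPM in the cKO libraries and 3401, 2388 and 2792 CPM in the control libraries. Both deep cKO libraries were above all controls, and cKO replicate 2 was within them. The means were 4302 ± 1467 CPM in cKO and 2860 ± 510.1 CPM in control samples (SD, n = 3 each), a log2 fold change of 0.57 (SE 0.38, edgeR unadjusted p = 0.131, adjusted p = 1). Without cKO replicate 2 it was 0.85 (SE 0.23, edgeR unadjusted p = 0.00691, adjusted p = 0.767). limma-voom gave an adjusted p of 0.000119 with all libraries, and DESeq2 one of 0.0155 without cKO replicate 2; over the 17 settings of the 6-library comparison the adjusted p ran from 0.000119 to 1 and the fold change kept its sign. Without cKO replicate 2 limma-voom gave an adjusted p of 0.282, and with all libraries DESeq2 did not call the gene. The call therefore depended on the tool and on the libraries used. No near-identical 3' copy of Eif4g2 was found.

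The other eIF4G scaffolds were far below Eif4g2 in the 5 deeper libraries. Eif4g1, which encodes the main scaffold between cap and ribosome, had 107, 1001 and 150 CPM in the cKO libraries and 70.3, 29.1 and 93.3 CPM in the control libraries. All 3 cKO values were above all 3 control values. The log2 fold change was 2.66 (SE 1.36, edgeR unadjusted p = 0.0509, adjusted p = 1) with all libraries and 1.02 (SE 0.51, edgeR unadjusted p = 0.0815, adjusted p = 0.767) without cKO replicate 2. Eif4g3 had 11.1, 213 and 37.1 CPM in cKO and 7.98, 6.82 and 18.8 CPM in control libraries, a log2 fold change of 2.90 (SE 1.86, edgeR adjusted p = 1) with all libraries and 1.12 (SE 1.08, edgeR adjusted p = 1) without cKO replicate 2, which held the one high value. Its share of the counts of the pair was 15.6% ± 5.48 in cKO and 15.3% ± 4.57 in control samples (SD, n = 3 each; exact two-sided permutation p = 0.9, where 0.1 is the smallest possible), and 14.6% ± 7.38 in cKO without cKO replicate 2 (n = 2; exact permutation p = 1). cKO replicate 2, with high values of both genes, had a share of 17.5%.

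The helicase eIF4A is encoded by Eif4a1 and Eif4a2, and here nearly all counts of the pair fell on Eif4a2. Its share of the pair was 99.6% ± 0.609 in cKO replicates 1 and 3 (SD, n = 2) and 99.5% ± 0.474 in control samples (SD, n = 3; exact permutation p = 0.8, smallest possible 0.2). cKO replicate 2 held 1 count of the pair, on Eif4a2 (share 100%, 95% Clopper-Pearson interval 2.5% to 100%), and with it as a full sample the cKO mean was 99.7% ± 0.499 (n = 3, exact permutation p = 0.5). Eif4a1 had 1, 0 and 94 counts in cKO and 165, 62 and 2 counts in control libraries. The level of Eif4a1 is uncertain: the pseudogene Eif4a-ps4 had 398, 0 and 592 counts in cKO and 476, 1014 and 927 counts in control libraries. No near-identical 3' copy of Eif4a1 was found, and the origin of the Eif4a-ps4 reads was not tested. Eif4a2 does have such a copy, the processed pseudogene Gm2999, identical to it over 192 aligned bases. Gm2999 had 2925, 0 and 897 counts in cKO and 2846, 3358 and 1067 counts in control libraries. The level of Eif4a2 is therefore uncertain too. Of the last 500 exon bases of Eif4a2, 38.8% are shared with Rfc4, a neighbouring gene, and the counting did not use strand. Eif4b, which stimulates the helicase, had 456, 320 and 621 CPM in cKO and 599, 482 and 805 CPM in control libraries. Eif4e itself, the cap-binding protein, had 34.1, 619 and 48.2 CPM in the cKO libraries and 122, 52.9 and 58.7 CPM in the control libraries. The 2 deep cKO libraries were below all controls and cKO replicate 2 was above them. Eif4e2, a cap-binding relative that represses translation, had 199, 3.52 and 187 CPM in the cKO libraries and 245, 347 and 353 CPM in the control libraries, with no overlap. Its log2 fold change was -1.27 (SE 1.32, edgeR adjusted p = 1), and -0.69 (SE 0.29, edgeR unadjusted p = 0.0466, adjusted p = 0.767) without cKO replicate 2. Eif4e3 had 46.1, 0 and 18.4 CPM in cKO and 40.5, 1.49 and 22.0 CPM in control libraries.

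Of the inhibitors of eIF4E, Eif4ebp2, the form known to prevail in brain, was the most abundant. It had 121, 8.79 and 112 CPM in the cKO libraries and 93.0, 103 and 166 CPM in the control libraries. Eif4ebp1 had 30.7, 0 and 39.4 CPM in the cKO libraries and 80.1, 95.2 and 41.3 CPM in the control libraries. These did not overlap, although cKO replicate 3 and control replicate 3 were close. For Eif4ebp1 the log2 fold change was -1.62 (SE 1.77, edgeR adjusted p = 1), and -1.05 without cKO replicate 2. Eif4ebp3 had 1 count in all, and another gene model covers 100% of its final 500 exon bases. Eif4enif1, which encodes the carrier that takes eIF4E into the nucleus and to P-bodies, had 62.0, 0 and 54.1 CPM in cKO and 22.2, 15.4 and 46.1 CPM in control libraries.

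**Figure D3:**
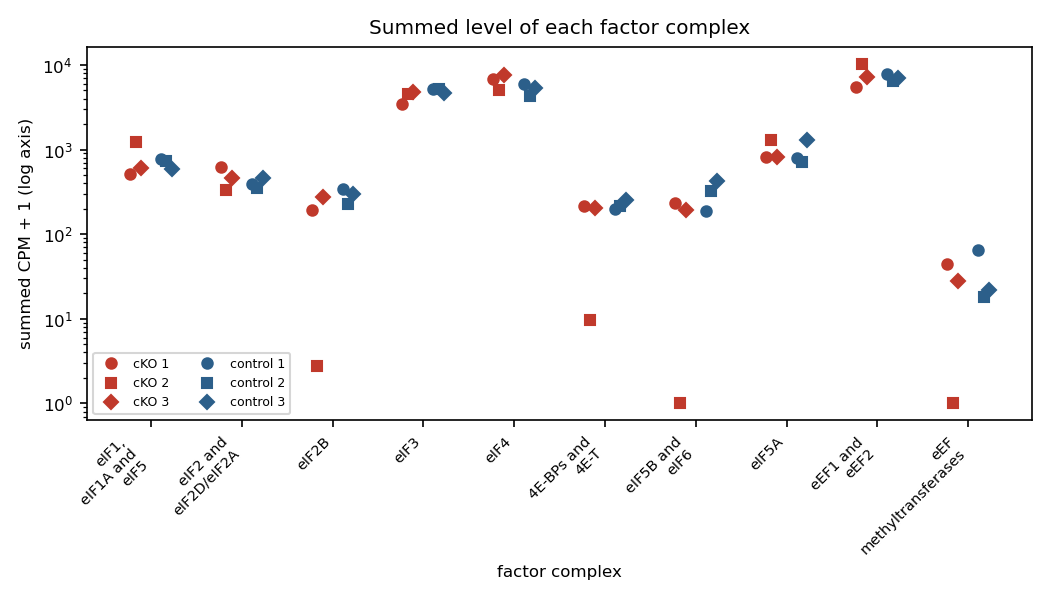
Summed CPM + 1 of each factor complex on a log axis, with cKO libraries left of control libraries. cKO replicate 2 (red square) is at or near 0 for eIF2B, for eIF5B and eIF6, and for the methyltransferases.

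Late in initiation, eIF5B joins the large subunit and eIF6 keeps the subunits apart until then. Eif6 had 209, 0 and 184 CPM in the cKO libraries and 168, 322 and 422 CPM in the control libraries, a log2 fold change of -1.19 (SE 1.33, edgeR adjusted p = 1), and -0.60 (SE 0.40, edgeR adjusted p = 0.899) without cKO replicate 2. cKO replicates 1 and 3 were within the range of the controls. Eif5b was low, with 22.9, 0 and 6.71 CPM in cKO and 21.1, 0.706 and 5.16 CPM in control libraries. eIF5A, the only protein known to carry hypusine, helps the ribosome past difficult peptide bonds. Eif5a had 789, 1307 and 816 CPM in cKO and 773, 712 and 1266 CPM in control libraries, and the groups overlapped. Its paralog Eif5a2 held 3.13%, 0% and 0.0104% of the counts of the pair in the cKO libraries and 2.33%, 0.482% and 1.99% in the control libraries. The 0% of cKO replicate 2 is 0 of 743 counts, with an upper 95% Clopper-Pearson limit of 0.495%. The mean shares were 1.05% ± 1.81 in cKO and 1.60% ± 0.985 in control samples (SD, n = 3 each; exact permutation p = 0.8, smallest possible 0.1), and 1.57% ± 2.21 in cKO without cKO replicate 2 (n = 2; exact permutation p = 1).

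The elongation factor genes summed to 5438, 10251 and 7164 CPM in the cKO libraries and 7854, 6392 and 6966 CPM in the control libraries. The mean was 7618 ± 2438 CPM in cKO and 7071 ± 737 CPM in control samples (SD, n = 3 each), and 6301 CPM in cKO without cKO replicate 2. Eef2 (ENSMUSG00000034994, GRCm39 chromosome 10, 81012465 to 81018332, plus strand), whose start site holds the cAMP response element printed above, had 2913, 4623 and 3768 CPM in the cKO libraries and 3925, 2358 and 3191 CPM in the control libraries. The groups overlapped, and the log2 fold change was 0.22 (SE 0.39, edgeR adjusted p = 1) with all libraries and 0.09 (SE 0.27, edgeR adjusted p = 1) without cKO replicate 2. Eef1b2, a subunit of the exchange factor of eEF1A, had 395, 2355 and 524 CPM in the cKO libraries and 622, 567 and 630 CPM in the control libraries. Its controls were among the most even of all members (coefficient of variation 5.62%), and cKO values lay on both sides of them. The log2 fold change was 0.79 (SE 0.72, edgeR adjusted p = 1) with all libraries and -0.39 (SE 0.25, edgeR adjusted p = 0.879) without cKO replicate 2. Eef1g, another subunit, had 276, 15.8 and 312 CPM in cKO and 316, 311 and 347 CPM in control libraries.

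eEF1A is encoded by Eef1a1, used in most cells, and by Eef1a2, which replaces it in mature neurons and muscle. Eef1a1 (ENSMUSG00000037742, GRCm39 chromosome 9, 78385731 to 78396433, minus strand) had 1524, 3238 and 2182 CPM in the cKO libraries and 2686, 2861 and 2572 CPM in the control libraries. cKO replicates 1 and 3 were below the controls and cKO replicate 2 above them. The log2 fold change was -0.27 (SE 0.44, edgeR adjusted p = 1) with all libraries, where RLE and upper-quartile scaling turned it positive (0.66 and 3.86), and -0.54 (SE 0.24, edgeR unadjusted p = 0.0520, adjusted p = 0.767) without cKO replicate 2. limma-voom gave -0.59 with an adjusted p of 0.0305 over all libraries, in a range of 0.0305 to 1 over the 17 settings. Eef1a2 (chromosome 2, 180789446 to 180798807, minus strand) had 238, 19.3 and 276 CPM in cKO and 218, 181 and 128 CPM in control libraries. Its log2 fold change was 0.01 (SE 1.43, edgeR adjusted p = 1) with all libraries and 0.55 (SE 0.34, edgeR adjusted p = 0.870) without cKO replicate 2.

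**Figure D4:**
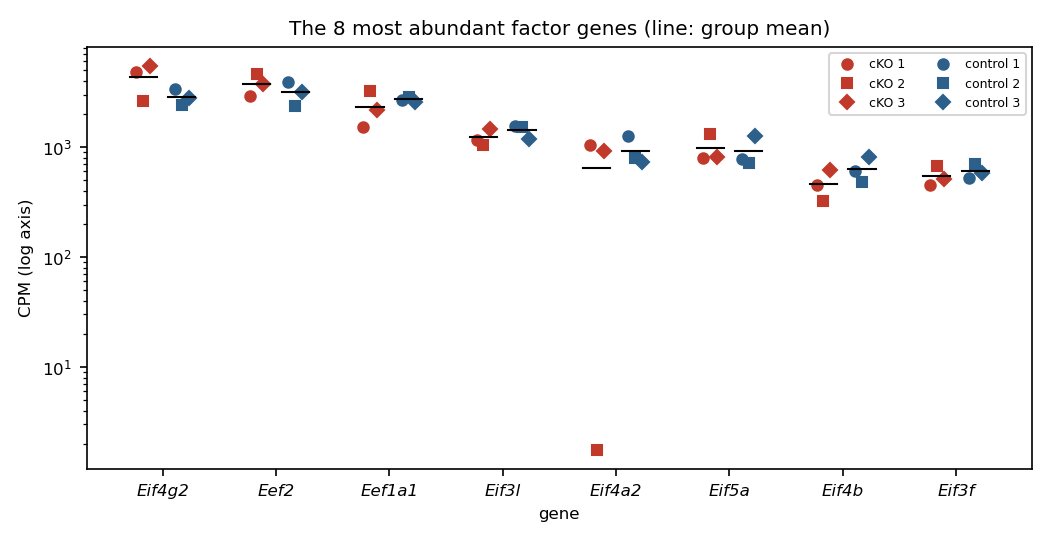
CPM on a log axis of the 8 members with the highest mean over the 5 deeper libraries, cKO libraries (red) left of control libraries (blue), with a line at each group mean. Eif4g2 in cKO replicates 1 and 3 (4824 and 5436 CPM) is above all controls, and Eif4a2 in cKO replicate 2 is 1 count.

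The share of Eef1a2 among the counts of both genes does not depend on library scaling. It was 13.5%, 0.594% and 11.2% in the cKO libraries and 7.49%, 5.95% and 4.75% in the control libraries (95% Clopper-Pearson intervals 13.1% to 14.0% in cKO replicate 1, 0.297% to 1.06% in cKO replicate 2 and 4.54% to 4.98% in control replicate 3). The means were 8.45% ± 6.90 in cKO and 6.06% ± 1.37 in control samples (SD, n = 3 each; exact two-sided permutation p = 0.6, smallest possible 0.1). Without cKO replicate 2 the cKO mean was 12.4% ± 1.61 (n = 2) and did not overlap the controls (exact permutation p = 0.2, which is the smallest that 2 against 3 can give). The summed neuron markers were 5693 and 6036 CPM in those 2 cKO libraries and 6051, 5145 and 1721 CPM in the control libraries, and control replicate 3, with the lowest neuron sum, had the lowest Eef1a2 share of the controls. The part of the neuron content in this share was not tested.

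More counts fell on near-identical copies of Eef1a1 than on the gene itself. The genome holds processed pseudogenes whose last 300 bases match the Eef1a1 mRNA at 97% identity or more, and 8 of them held 501277 counts in the 5 deeper libraries, against 154939 on Eef1a1, a ratio of 3.24. Reads with several alignments were dropped by default, so the counts on the copies are of reads placed at a single site. Whether those reads came from the copies or from Eef1a1 was not tested. The sums below therefore assume an origin in Eef1a1 and lack the dropped reads. With the 8 copies added, Eef1a1 had 7108, 8320 and 9068 CPM in the cKO libraries and 12199, 10329 and 11223 CPM in the control libraries. All 3 cKO values were below all 3 control values, as they were for 11.1% of all genes tested. This sum was chosen after the data were seen. The means were 8165 ± 989 CPM in cKO and 11250.4 ± 935 CPM in control samples (SD, n = 3 each), a ratio of 0.726, and the exact two-sided permutation p was 0.1, the smallest that 3 against 3 can give. edgeR on counts with all copies added to their members gave a log2 fold change of -0.50 (SE 0.25, edgeR unadjusted p = 0.0464, adjusted p = 1) with all libraries and -0.47 (SE 0.21, edgeR unadjusted p = 0.0543, adjusted p = 0.766) without cKO replicate 2. The direction depended on scaling when cKO replicate 2 was included: the log2 ratio of means was -0.46 by total counts and -0.49 by TMM, but 0.23 by RLE and 3.19 by upper quartile. Without that library it was -0.45 to -0.56 under all 4 scalings. With the copies counted as Eef1a1, the Eef1a2 share was 3.24%, 0.232% and 2.96% in cKO and 1.75%, 1.72% and 1.13% in control libraries, so the 2 deep cKO libraries stayed above the controls.

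**Figure D5:**
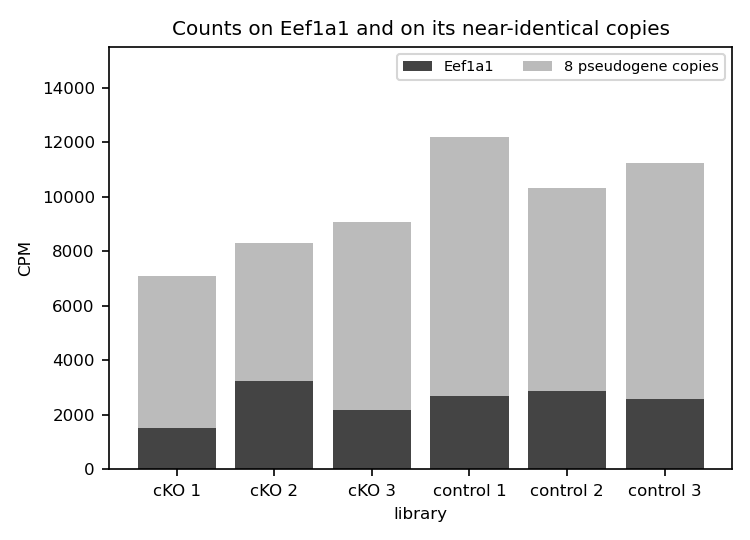
CPM on Eef1a1 (dark) and on its 8 near-identical pseudogene copies (light) in each library, cKO left of control. The copies take the larger part in every library, and the full bars of the 3 cKO libraries (7108 to 9068 CPM) are below those of the 3 control libraries (10329 to 12199 CPM). Of all genes tested, 11.1% were likewise lower in every cKO library.

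Near-identical 3' ends also touched other members. Of the 64 genes, 15 had at least 1 other gene in the files with such a stretch and 49 had none, and the counts on the copies exceeded the counts on the member itself for 4 genes: Eef1a1, Eif1, Eif4a3 and Eif2s3x. Pseudogenes named after eIF3e (older symbol Eif3s6) were also counted: Eif3s6-ps2 had 4072, 264 and 4381 counts in the cKO libraries and 5224, 5572 and 5498 in the control libraries. Eif3e itself had 4452, 1 and 4827 counts in cKO and 5470, 7175 and 6527 in control libraries. cKO replicate 2 thus held 264 counts on the pseudogene and 1 on the gene. The last 500 exon bases were shared with a neighbour for 55.4% of Eef1d (Naprt) and 46.8% of Eif5b (Rev1). Since counting was without strand, reads in the shared stretch cannot be assigned to either gene of such a pair, and the levels of both are uncertain.

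The enzymes that methylate the elongation factors were the lowest group. Eef1akmt2 had 18.0, 0 and 11.9 CPM in the cKO libraries and 54.1, 11 and 15 CPM in the control libraries. Eef1akmt3 had 15.5, 0 and 8.32 CPM in cKO and 3.08, 0 and 2.28 CPM in control libraries. The 2 deep cKO libraries were above the controls for Eef1akmt3, with 215 and 98 counts in cKO against 42, 0 and 31 in control libraries. Eef2kmt and Eef1akmt1 had at most 7.98 CPM in any library.

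Other genes of protein synthesis were described from 8 lists with 91 genes in the files. No list gene passed in edgeR. At an unadjusted p under 0.05 there were 0 of 80 tested over all 6 libraries, against 2.83% of all genes, and 7 of 85 without cKO replicate 2 (8.24%), against 6.09% of all genes. DESeq2 called 1 of 82 (1.22%), Gigyf1, over all 6 libraries, against 0.706% of all genes. It called 4 of 89 (4.49%), Gigyf1, Dph7, Tars and Wars, without cKO replicate 2, against 3.04% of all genes. limma-voom called 0 list genes in both, with 1 of 80 and 7 of 85 at an unadjusted p under 0.05. In the fit of all 6 libraries the smallest p of a list gene was 0.106 (unadjusted, edgeR), for Rps6kb2, a ribosomal S6 kinase. It had 87.9, 976 and 79.2 CPM in cKO and 35.7, 87.2 and 115 CPM in control libraries. Only cKO replicate 2 stood out, and the log2 fold change was 2.21 (SE 1.37) with all libraries and 0.11 (SE 0.52) without it. Values below are CPM of replicates 1, 2 and 3, and counts of signs are those without cKO replicate 2, where the lowest edgeR adjusted p of a list gene was 0.767. The genes named had the smallest p of their lists, so separate groups among them carry little weight. Over all genes with all 6 libraries, 11.1% had every cKO value below the controls and 1.33% every cKO value above. The number of list genes with separate groups was not counted.

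Of the cytosolic aminoacyl-tRNA synthetases, which load tRNAs, 5 of 21 had a positive and 16 a negative log2 fold change, with a median of -0.40 against -0.06 over all genes. With all 6 libraries the median was -0.59 against -0.44 over all genes. Wars, the enzyme for tryptophan, had 54.1, 350.0 and 70.1 CPM in cKO and 271, 122 and 295 CPM in control libraries. cKO replicates 1 and 3 were below all controls and cKO replicate 2 was above them. The log2 fold change of Wars was -1.87 (SE 0.45, edgeR unadjusted p = 0.00400) without cKO replicate 2 and -0.59 (SE 1.40, edgeR unadjusted p = 0.672) with it. Tars, the enzyme for threonine, had 117, 0 and 152 CPM in cKO and 357, 251 and 281 CPM in control libraries, with all cKO values below all control values. Its log2 fold change was -1.14 (SE 0.31, edgeR unadjusted p = 0.00776) without cKO replicate 2 and -1.72 (SE 1.42, edgeR unadjusted p = 0.225) with it. Tufm, the mitochondrial elongation factor Tu, had 33.3, 0 and 35.2 CPM in cKO and 78.4, 99.01 and 56.5 CPM in control libraries, and 6 of 7 mitochondrial factors had a negative fold change. The other of that list's 2 named genes, the release factor Mtrf1l, had 0, 0 and 4.33 CPM in cKO and 18.8, 9.33 and 11.9 CPM in control libraries.

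In the mTORC1 pathway (6 positive and 9 negative of 15), Tsc2, an inhibitor of the kinase complex, had 55.9, 0 and 123 CPM in cKO and 44.98, 33.8 and 30.8 CPM in control libraries. Ddit4, a stress-induced inhibitor of the same pathway, had 69.1, 128 and 58.5 CPM in cKO and 300, 188 and 69.9 CPM in control libraries. These 2 inhibitors lay on opposite sides of 0, with log2 fold changes of 1.28 (SE 0.50) for Tsc2 and -1.55 (SE 0.62) for Ddit4 without cKO replicate 2. With all libraries the values were 0.70 (SE 1.74) for Tsc2 and -1.18 (SE 1.58) for Ddit4. Among the poly(A) and cap-linked regulators (9 positive and 4 negative of 13), Gigyf1, a partner of eIF4E2, had 230, 0 and 122 counts in cKO and 0 counts in all 3 control libraries. Cyfip2, of the complex that joins FMRP to eIF4E, had 465, 0 and 408 CPM in cKO and 378, 231 and 219 CPM in control libraries.

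In the remaining lists, Pdcd4, an inhibitor of eIF4A, had 66.4, 473 and 72.7 CPM in cKO and 29.7, 46.4 and 41.3 CPM in control libraries. All 3 cKO values of Pdcd4 were above all 3 control values. Ddx3x, a helicase of scanning, had 632, 149.5 and 486 CPM in cKO and 429, 319 and 478 CPM in control libraries. Mknk1, a kinase of eIF4E, had 0, 426 and 6.54 CPM in cKO and 23.7, 34.4 and 6.71 CPM in control libraries, and Mknk2 had 1.08, 206 and 31.8 CPM in cKO and 46.2, 27.1 and 33.8 CPM in control libraries. Both kinases were above all controls in cKO replicate 2 and below them in the other 2 cKO libraries, except that Mknk2 in cKO replicate 3 exceeded control replicate 2. Etf1, the release factor that ends translation, had 239, 264 and 282 CPM in cKO and 274, 332 and 568 CPM in control libraries. Gspt1, its partner, had 139.5, 894 and 218 CPM in cKO and 225, 247 and 272 CPM in control libraries, again with cKO replicate 2 above and the other 2 below all controls. Dhps, which makes hypusine on eIF5A, had 105, 0 and 172 CPM in cKO and 115, 101 and 75.2 CPM in control libraries. Dph5, an enzyme of the diphthamide of eEF2, had 24.5, 0 and 45.6 CPM in cKO and 52.7, 71.9 and 51.2 CPM in control libraries, with no overlap.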

How the data were processed

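RNA was sequenced from 3 cKO and 3 control samples with a 3' tag kit, QuantSeq FWD, as the labels' protocols state. Deposited were raw counts per gene, made by the authors with featureCounts 2.0.0 on the Ensembl release 104 annotation of GRCm39, per the file headers. The command names no strand option and no multi-mapping reads, so by default the counting was unstranded and reads with several alignments were dropped. The submitters' processing notes also list STAR, FastQC and DESeq2, with no role given.

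Gene identifiers were matched to symbols (52083 of 55416). The members, complexes and lists were chosen with earlier results of these data known. Genes kept by filterByExpr were scaled by TMM and tested, cKO against control with no covariate, with glmQLFit (robust) and glmQLFTest in edgeR 4.0.16 (R 4.3.3), two-sided, Benjamini-Hochberg adjusted p under 0.05. The standard error is the size of the log2 fold change over the square root of F. The edgeR script was first run on simulated data. These gave all libraries the same mean profile apart from genes changed on purpose. They lack the many zeros beside high counts of cKO replicate 2, so they do not test the fit under that pattern. CPM in the text use total counts without TMM. Shares within a pair of paralogs have 95% Clopper-Pearson intervals, which treat counts as independent, and exact permutation tests over samples. Near-identical copies were found with BLAST+ 2.17.0 (last 300 bases of GENCODE M21 transcripts, at least 97% identity over at least 100 bases). Promoters came from RefSeq; figures from matplotlib 3.10.9.

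The members given by library were the 8 most abundant, the 6 per direction and 2 per complex with the smallest p, paralog pairs and the 4E-BPs; of each list the 2 genes with the smallest p without cKO replicate 2 were named. Others named (Eif3s6-ps2, Eif4a-ps4, Eef1g, Eif4enif1, Eif5, Eif1ad, Rps6kb2, Dph7) were chosen after their values were seen. Alternatives were RLE, upper-quartile and no scaling, DESeq2 1.42.0, limma-voom (limma 3.58.1), 2 other filters, the replicate number as a block, a threshold of 0.10 and leaving out each library. Voom with sample quality weights and counts with pseudogene copies added were chosen after seeing the data.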

Additional observations from a re-analysis of the deposited data

How the results depend on the processing

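The number of members called (0) was also 0 under every setting run except limma-voom (2), voom with sample quality weights (1) and, without cKO replicate 2, DESeq2 (2). Over all genes the main count of 2 became 16 with RLE scaling (14 higher, 2 lower), 0 with upper-quartile scaling, 130 with DESeq2 (61 higher, 69 lower), 8 with limma-voom, 23 with every gene with a count, 1 with the replicate block, and 1 to 7 leaving out 1 library. Without cKO replicate 2 it was 1, against 185 higher and 432 lower with DESeq2. Same-numbered cKO and control samples deviated together hardly at all (r = 0.0791, 0.0511 and 0.0112 over 12833 genes). Differently numbered ones gave r of -0.0677 to 0.0130. With 3 samples per group these values cannot decide whether the numbers pair samples. The main fit treated the samples as unpaired, and the replicate block called 0 members.

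Of 256 fold changes of the 16 members whose fold changes are given, 235 kept direction and side of the threshold. Reversed ones were Eif1 with limma-voom (-0.31), quality weights (-0.55) and leaving out a library (-0.72 without cKO replicate 2, up to 2.14), Eef1b2 likewise (-0.42, -0.38 and -0.39, up to 1.13), Eef1a1 with RLE (0.66), upper-quartile scaling (3.86) and DESeq2 (0.54), Eef2 with limma-voom (-0.059), Eef1a2 with the 5 CPM filter (-0.0025), the replicate block (-0.52) and leaving out a library (-0.41 to 0.55), and Eif2s3y with limma-voom (-0.82), the block (-0.61) and leaving out a library (-0.20 to 1.07). The difference in Eef1a2 share ran from -0.15 to 6.31 percentage points leaving out a library, and that in Eif2s3y share from -1.50 to 3.14. Causes were not tested.

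The median log2 fold change of all genes moved from -0.44 under TMM to -0.28 under RLE and -0.01 under upper-quartile scaling, so directions with all 6 libraries are relative to that shift. cKO replicate 2, with 568509 counts, limits every 6-library value, and the members at 0 there cannot be placed below 5.28 CPM. With that library left out, a cKO group has 2 pools.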
